A study of Bos taurus with 24 samples.

Results

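Growth hormone, prolactin and insulin-like growth factor 1 (IGF1) signalling was followed through 4 of the 27607 Ensembl gene IDs in the count tables of bovine liver and mammary gland. The genes were picked by ID: GHR (ENSBTAG00000001335) and PRLR (ENSBTAG00000025035), the receptors of growth hormone and prolactin, IGF1 (ENSBTAG00000011082), a secreted growth factor, and STAT5A (ENSBTAG00000009496), a transcription factor that both receptors activate. All 4 passed the filter on low counts in both tissues. The deposited tables hold IDs without symbols, and none of the IDs could be matched through the RefSeq table used here, so the pairing of ID and symbol was taken with the choice of genes and was not tested. For the same reason other genes of the pathway, such as the IGF carriers and the inhibitors of the pathway, and markers of hepatocytes and mammary epithelium were not analysed here.

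Growth hormone from the pituitary binds GHR on hepatocytes, and the receptor acts through the kinase JAK2 and STAT5 factors to switch on IGF1, which the liver releases into blood and which feeds back on growth hormone release. In dairy cows, liver GHR and IGF1 are known to fall around calving, an uncoupling of growth hormone from IGF1 that accompanies the start of milk production. Prolactin acts through PRLR, a relative of GHR in the class I cytokine receptor family, and STAT5A was first known as the mammary gland factor because it binds the promoters of milk protein genes in prolactin-treated epithelium.

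The libraries came from multiparous Holstein cows, a dairy breed, in late gestation and out of milk, biopsied 21 d before expected calving. All the cows were dried off 60 d before calving and moved 35 d before it. Control cows were kept under a fixed cycle of 16 h light and 8 h dark, and for phase shift cows the same cycle was moved by 6 h every 3 d for 2 weeks, so that at least 5 shifts preceded the biopsies. The light was 150 lx in both treatments. Each tissue has 6 control and 6 phase shift libraries, and 11 of the 13 labelled cows (6 control, 5 phase shift) have a library of both tissues. All the cows shared the breed, the pregnancy, the dry state and the barn, and each treatment had its own partition of that barn, which means that effects of the 2 cannot be told apart.

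Liver libraries held 7676913 to 26927601 counts and mammary libraries 5046912 to 13062895, so each of the 4 genes rested on at least 93 counts in every library. Levels, ranges and overlaps are given as counts-per-million values (CPM) of the library total. Without a gene length they do not compare one gene with another. Between libraries they take no account of composition. Trimmed-mean (TMM) scaling does so by setting the bulk of genes equal between libraries. The TMM factors, which divide CPM, ran from 0.825 to 1.05 within liver and from 0.685 to 1.14 within mammary. Fitted over both tissues, their median was 0.717 in liver and 1.52 in mammary. Phase shift cow 22 gave a liver library unlike the other livers (median rank correlation with them 0.928, where the others had 0.972 to 0.978), and so did the mammary libraries of control cow 26 (0.860) and phase shift cow 21 (0.899), where the other mammary libraries had 0.947 to 0.969. In those mammary libraries the 10 most abundant genes took 26.2% and 25.1% of the counts, against 9.19 to 16.4% in the others. In bulk biopsies, fewer cells of a type and less RNA per cell cannot be told apart.

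GHR was higher in liver than in mammary gland, where every library also held it. In control livers GHR stood at 706 CPM at the lowest, 794 at the median and 877 at the highest, and in phase shift livers at 617, 805 and 889. In mammary gland the control cows gave 80.4, 108 and 449.5 CPM and the phase shift cows 54.6, 139 and 174. The lowest liver library thus lay above the highest mammary library, which was that of control cow 26, while the treatments overlapped within each tissue. Of 16656 genes, 41.2% had no overlap between the tissues over the 24 libraries, and 8.6% had none and were lower in mammary.

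IGF1 was also higher in liver, with a smaller gap. Control livers held 44.1 CPM at the lowest, 91.2 at the median and 136 at the highest, and phase shift livers 60.6, 107 and 141. Control mammary glands held 20.4, 30.9 and 37.9 CPM and phase shift glands 10.04, 29.1 and 50.9. The tissues overlapped by a single liver: control cow 19 had 44.1 CPM in liver, below the 50.9 CPM in the mammary gland of phase shift cow 26 and level with the 44.1 CPM in that of phase shift cow 19.

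PRLR, by contrast, overlapped between the tissues in CPM, with a wider range in mammary. It lay at 386, 508 and 749 CPM (lowest, median, highest) in control livers and at 425, 646 and 708 in phase shift livers. In mammary it lay at 71.7, 640 and 942 CPM in control cows and at 447, 483 and 941 in phase shift cows. The lowest of these, 71.7 CPM, belonged to control cow 26, whose gland also had the highest GHR, and the next mammary library had 447 CPM. The livers spanned 386 to 749 CPM, and 4 glands, at 821 to 942 CPM, lay above all of them.

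STAT5A was the one member with far more counts in mammary gland. Livers held between 14.2 and 24.9 CPM, with medians of 22.6 in control and 21.3 in phase shift cows. Mammary libraries held 133, 333 and 484 CPM in control cows and 170, 220 and 507 in phase shift cows. The lowest mammary library in CPM, again control cow 26, was above the highest liver, and 32.6% of genes were higher in mammary without overlap.

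**Figure D1:**
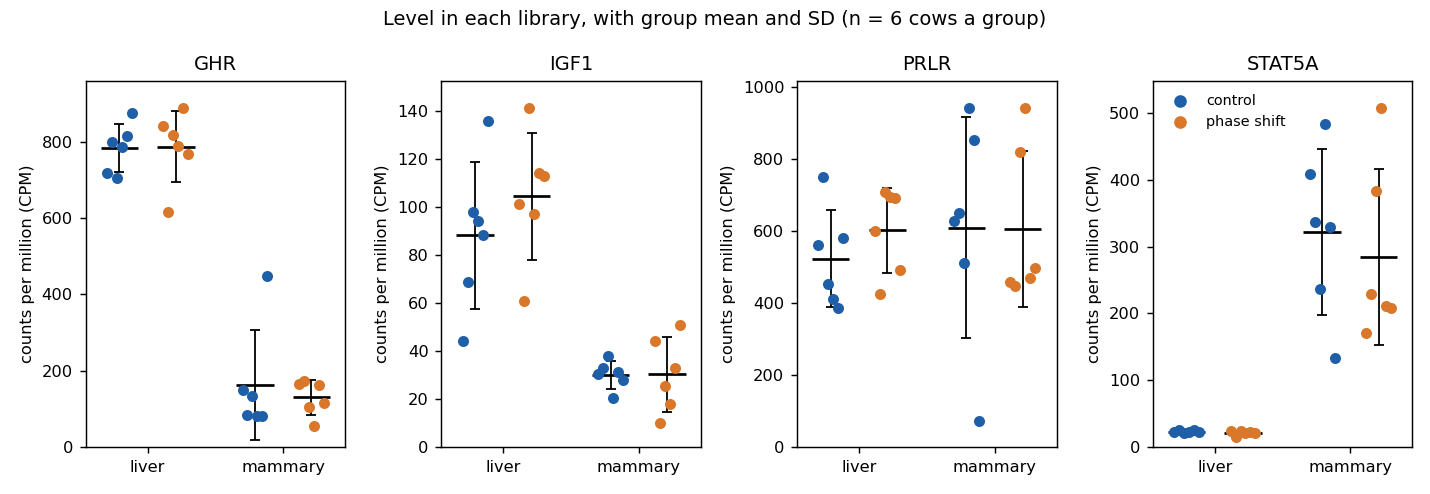
Level of each gene (vertical axis, CPM, linear and starting at 0) in the 12 liver and 12 mammary libraries; points are cows, blue for control and orange for phase shift, horizontal bars the group mean and vertical bars the SD of 6 cows. GHR is high in every liver, STAT5A in every mammary gland, and the single high GHR point in mammary, at 449.5 CPM, and the single low PRLR point, at 71.7 CPM, are the same control cow.

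The comparison of mammary gland with liver asked which of these genes differ between tissues of the same cow. Over the 11 cows with both biopsies, fitted with the cow as a block, GHR was lower in mammary by a log2 fold change of -3.74 (SE 0.26, edgeR quasi-likelihood test, adjusted p = 9.4e-09), a 13.4-fold difference with a 95% confidence interval of 9.03 to 19.8. IGF1 was 6.05-fold lower in mammary (4.74 to 7.71, log2 fold change -2.60, SE 0.16, edgeR adjusted p = 2.37e-09), and STAT5A was 6.39-fold higher (4.83 to 8.45, log2 fold change 2.68, SE 0.19, edgeR adjusted p = 9.02e-09). Each of these held in 11 of 11 cows. PRLR was lower in mammary by a log2 fold change of -1.03 (95% interval -1.63 to -0.43, SE 0.28, edgeR adjusted p = 0.00445), in 9 of 11 cows on this scale, a direction that turned when libraries were scaled by their size alone. In the 6 control cows alone PRLR gave -0.95 (edgeR adjusted p = 0.107). All 4 genes passed the threshold, as did 71.5% of the 16818 genes tested, 36.8% higher and 34.7% lower in mammary, so a call by itself is no mark of these genes. At an unadjusted p under 0.05 the share of all genes was 73.5%.

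The size of these differences, and for PRLR the direction, rested on how the tissues were scaled. The fit used trimmed-mean (TMM) scaling, which sets the bulk of genes equal between libraries, and the median gene then differed by 0.059 on the log2 scale. With library size as the only scaling (an alternative added after the data were seen) the median gene was 1.11 higher in mammary on the log2 scale, and 83.0% of the genes called were higher in mammary, against 51.5% with TMM. On that scale GHR was still lower in mammary (log2 fold change -2.67, edgeR adjusted p = 1.65e-08), as was IGF1 (-1.55, edgeR adjusted p = 1.13e-06), and STAT5A was higher (3.72, edgeR adjusted p = 1.16e-10). PRLR differed by 0.051 (SE 0.30, edgeR adjusted p = 0.872). PRLR was thus lower in mammary relative to most genes, while in CPM its tissue difference was within the spread between cows.

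Cow by cow, the CPM of GHR in liver was 1.95 to 14.9 times that in mammary, with a median of 5.84. The smallest ratio was that of control cow 26, with 877 CPM in liver and 449.5 in mammary, and the largest that of phase shift cow 23, with 819 and 54.6 CPM. For IGF1 the ratio of liver to mammary ran from 1.44 in control cow 19 to 7.82 in phase shift cow 23, with a median of 2.58. For STAT5A the ratio of mammary to liver ran from 5.88 in control cow 26 to 26.6 in phase shift cow 22, whose liver library stands apart, with a median of 13.2. In CPM, PRLR was higher in mammary in 7 of 11 cows and lower in 4, from 2.30 times the liver level in control cow 24 to 0.124 times in control cow 26.

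**Figure D2:**
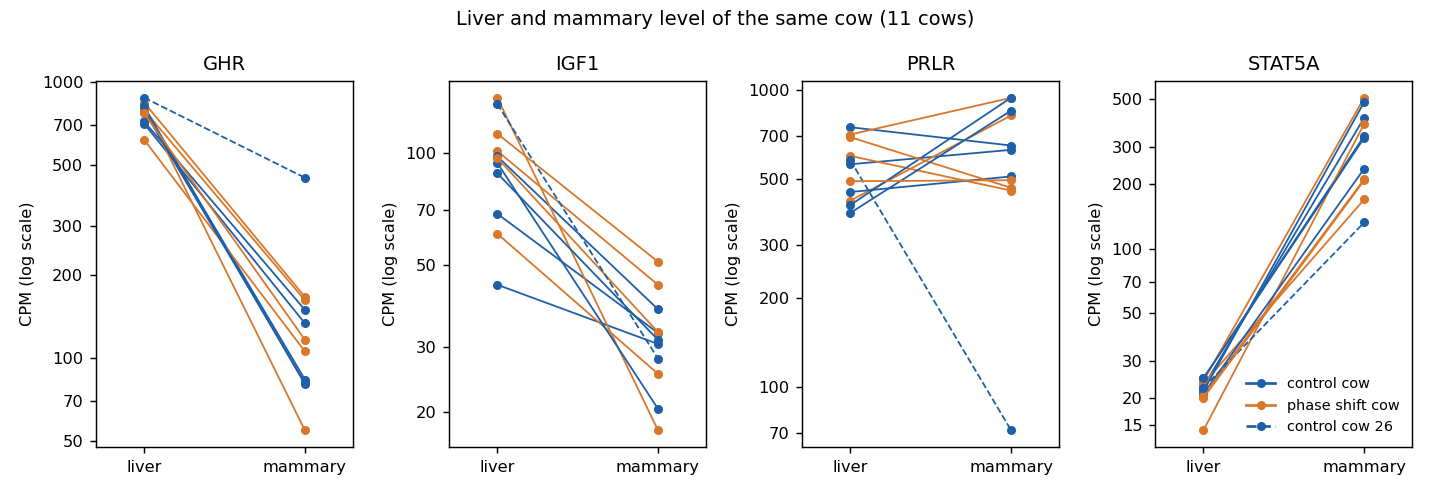
Liver and mammary level of each gene in the same cow (vertical axis, CPM on a log scale; 1 line a cow, 11 cows, blue for control and orange for phase shift, dashed for control cow 26). GHR and IGF1 lines fall and STAT5A lines climb in all 11 cows, whereas PRLR lines cross, with 7 higher in mammary and 4 lower.

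Phase shifts were compared with the constant cycle in each tissue, to ask whether 2 weeks of disturbed light timing reached these genes. In liver, the mean of GHR was 784 CPM under the constant cycle (SD 63.5, n = 6) and 788 CPM under phase shifts (SD 93.4, n = 6), with a log2 fold change of 0.082 (95% interval -0.066 to 0.23, edgeR adjusted p = 0.783). This 95% interval, with TMM scaling, runs from 0.955 to 1.17 times the control level. With library size as the only scaling the log2 fold change was 0.0078 (SE 0.095). IGF1 had 88.1 CPM (SD 30.7) in control and 105 CPM (SD 26.4) in phase shift livers, with a log2 fold change of 0.31 (-0.17 to 0.80, edgeR adjusted p = 0.758). The phase shift livers lay within the control range for 5 of 6 cows, and 1 exceeded it.

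PRLR in liver had 524 CPM (SD 136) in control and 602 CPM (SD 119) in phase shift cows, a log2 fold change of 0.27 (-0.069 to 0.60, edgeR adjusted p = 0.734). Every phase shift liver lay inside the control range. STAT5A in liver had 22.9 CPM (SD 1.61) in control and 20.8 CPM (SD 3.57) in phase shift cows, a log2 fold change of -0.073 (-0.27 to 0.13, edgeR adjusted p = 0.876). In CPM, 3 of 6 phase shift livers lay below all controls, a count that does not hold on the TMM scale of the fold change. Phase shift cow 22, whose library stands apart, was lowest for STAT5A at 14.2 CPM.

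None of the 4 passed the threshold in liver, where 0% of 13752 genes did, and over all 12 livers none had an unadjusted p under 0.05, which 5.91% of the genes had. Single libraries moved the values: PRLR was 0.40 without control cow 21 (edgeR adjusted p = 0.849), and IGF1 was 0.47 without control cow 26 (edgeR adjusted p = 0.759), both with an unadjusted p under 0.05, while IGF1 was 0.18 without control cow 19 (edgeR adjusted p = 0.860). The median log2 fold change of the 4 was 0.17, with 3 higher and 1 lower, and that of all genes tested was 0.013. The intervals leave room for changes of IGF1 from 0.886 to 1.74 times the control level, so a moderate change of IGF1 was not detectable with 6 cows a group.

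In mammary gland the spread between cows was wider and the comparison less precise. GHR had 163 CPM in control glands (SD 144, n = 6) and 130 CPM in phase shift glands (SD 46.3, n = 6), a log2 fold change of -0.58 (95% interval -1.77 to 0.60, edgeR adjusted p = 0.942). Control cow 26 set this direction: without its library the log2 fold change was 0.38 (edgeR adjusted p = 0.795), and without it and phase shift cow 21 it was 0.15 (edgeR adjusted p = 0.963). IGF1 had 30.1 CPM in control (SD 5.79) and 30.2 CPM in phase shift glands (SD 15.6), a log2 fold change of -0.14 (-0.75 to 0.47, edgeR adjusted p = 0.983). In CPM, though not on the TMM scale of the fold change, 2 phase shift glands lay above and 2 below all controls. The lowest of these, 10.04 CPM, was the library of phase shift cow 21, and without it the log2 fold change was 0.011 (edgeR adjusted p = 0.994).

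PRLR, the receptor through which prolactin reaches mammary epithelium, had 609.5 CPM (SD 307) in control and 605.5 CPM (SD 217) in phase shift glands, a log2 fold change of 0.0086 (-0.89 to 0.91, edgeR adjusted p = 0.999). Its direction turned when any of 5 libraries was left out: it was -0.20 without control cow 26 (edgeR adjusted p = 0.888), -0.20 when phase shift cow 23 was left out, -0.075 without phase shift cow 22, -0.055 without control cow 23 and -0.0028 without control cow 19. STAT5A had 321 CPM (SD 124) and 285 CPM (SD 132), a log2 fold change of -0.17 (-0.86 to 0.53, edgeR adjusted p = 0.980), which ran from -0.45 without phase shift cow 23 (edgeR adjusted p = 0.683) to -0.011 without control cow 24 (edgeR adjusted p = 0.999). None of the 4 had an unadjusted p under 0.05, which 4.75% of 15547 genes had, and 0% of genes passed the adjusted threshold. The median log2 fold change was -0.15 for the 4, with 3 lower and 1 higher, and -0.0081 for all genes tested.

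**Figure D3:**
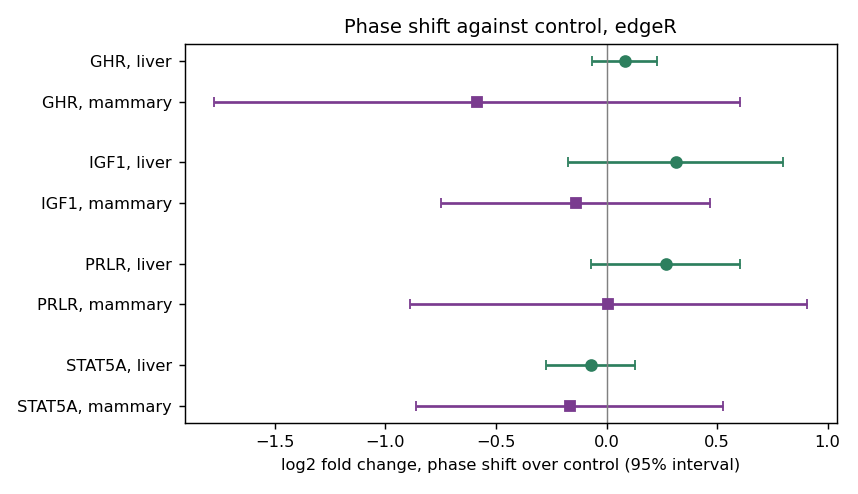
Log2 fold change of phase shift over control (horizontal axis, 0 is no difference) for the 4 genes in liver (green circles) and mammary (purple squares), with 95% confidence intervals from edgeR, 6 cows a group. All 8 intervals include 0, and the mammary interval of GHR, from -1.77 to 0.60, is the widest while that of GHR in liver, from -0.066 to 0.23, is the narrowest.

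For none of the 4 did the tissues differ detectably in their response. The difference of the log2 fold changes, mammary minus liver with the cow as a block, was -0.34 for GHR (SE 0.49), -0.34 for IGF1 (SE 0.31), -0.099 for PRLR (SE 0.58) and -0.17 for STAT5A (SE 0.37), with edgeR adjusted p from 0.933 to 0.993. Of all 16818 genes 0% passed and 4.13% had an unadjusted p under 0.05. The 95% interval for GHR, -1.39 to 0.72, includes differences of more than 2-fold. Without phase shift cow 22 and control cow 26 the difference was -0.72 for PRLR (edgeR adjusted p = 0.977), -0.53 for STAT5A, -0.47 for IGF1 and 0.0068 for GHR.

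Variation between cows differed widely among the genes and between the tissues. Over the 12 livers the log2 CPM of GHR had an SD of 0.15, and 92.9% of the 13752 genes tested varied more. Among the 1396 liver genes with a mean of at least 100 CPM, whose counting error is small as it is for GHR, 82.1% varied more. IGF1, its target, had an SD of 0.48 in the same livers, and only 21.3% of genes varied more, so the livers shared a near-constant GHR level beside an IGF1 level that spanned 44.1 to 141 CPM, a 3.20-fold range.

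In mammary the order was different. The SD of log2 CPM was 0.78 for GHR, 0.62 for IGF1, 0.99 for PRLR and 0.61 for STAT5A, and 18.7%, 29.3%, 8.75% and 29.9% of 15547 genes varied more. Without control cow 26, the SD of PRLR was 0.43, with 41.5% of genes varying more, and that of GHR was 0.54, with 27.5%. Among mammary genes with a mean of at least 100 CPM, 4.43% varied more than PRLR over all 12 libraries, 19.2% without control cow 26 and 11.1% without it and phase shift cow 21.

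The relation of GHR with IGF1 over liver libraries asks whether livers with more receptor transcript also held more transcript of the growth factor it induces. Over the 12 livers Pearson's r of log2 CPM was 0.644 (permutation p = 0.026, adjusted p = 0.104 over 8 relations) and Spearman's rho was 0.636 (permutation p = 0.0297, adjusted p = 0.119), so the relation did not pass after adjustment. At the ends of the IGF1 range, control cow 19, with the lowest IGF1 at 44.1 CPM, had the third lowest GHR at 719 CPM, and phase shift cow 23, with the highest IGF1 at 141 CPM, had a GHR of 819 CPM. Without the livers farthest from the median GHR, phase shift cow 22 and control cow 23, r was 0.716 over 10 livers (permutation p = 0.0212).

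Within treatments, r was 0.588 over the 6 control livers (exact permutation p = 0.217) and 0.834 over the 6 phase shift livers (exact permutation p = 0.0639). Without the library of phase shift cow 22 alone, r was 0.572 (permutation p = 0.0648), and without control cow 26 it was 0.591 (permutation p = 0.059). IGF1 was not singular in its likeness to GHR: 2.56% of the 13751 other liver genes had a higher rho with GHR.

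In mammary gland GHR and IGF1 showed no such relation over all libraries (r = 0.0911, permutation p = 0.766, adjusted p = 0.929; rho = 0.154, permutation p = 0.637), and r was -0.089 without control cow 26 and phase shift cow 23, the farthest from the median GHR. Without the 2 libraries that stand apart, r was 0.691 over 10 glands (permutation p = 0.0289, not adjusted), and over the same 10 with TMM scaling it was 0.569 (permutation p = 0.089). Over those 10 glands, 20.6% of the 15546 other mammary genes had a higher rho with GHR than IGF1 had. In CPM, the libraries of phase shift cow 21 (GHR 174, IGF1 10.04) and control cow 26 (GHR 449.5, IGF1 27.9) both lay high for GHR. Both were below the IGF1 median of 30.9 CPM. Their TMM factors, 0.795 and 0.685, were the lowest of all glands, so TMM scaling raises both relative to the others. The place of control cow 26 below the IGF1 median holds in CPM and not with TMM scaling.

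PRLR and STAT5A, receptor and effector of prolactin, moved together over mammary libraries. Pearson's r was 0.816 (permutation p = 5e-05, adjusted p = 0.0004 over 8 relations) and rho was 0.881 (permutation p = 0.00031, adjusted p = 0.00248). The relation held within the control glands (r = 0.919, n = 6, exact permutation p = 0.0111) and the phase shift glands (r = 0.963, n = 6, exact permutation p = 0.0194), without control cows 24 and 26, the farthest from the median PRLR (r = 0.889, permutation p = 0.00112), and without the 2 libraries that stand apart (r = 0.912, permutation p = 0.00106). With TMM scaling r was 0.715 (permutation p = 0.00292). Phase shift cow 23 and control cow 24 topped both lists, with 941 and 942 CPM of PRLR and 507 and 484 CPM of STAT5A. Control cow 26 was at the bottom of both in CPM, and with TMM scaling at the bottom for PRLR alone. In liver the same pair gave r = 0.381 (permutation p = 0.232, adjusted p = 0.619; rho = 0.350), and r = 0.725 without control cows 24 and 25, the farthest from the median PRLR (permutation p = 0.00489, not adjusted). Without the liver of phase shift cow 22, which stands apart, r was 0.172 (permutation p = 0.606), and with TMM scaling over all 12 livers it was 0.209 (permutation p = 0.522).

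GHR ran opposite to both in mammary gland. These relations were added after the data were seen, and their p-values were adjusted over all 16 relations computed. For GHR with PRLR, r was -0.918 (permutation p = 4e-05, adjusted p = 0.0004) and rho -0.944 (permutation p = 3e-05, adjusted p = 0.00048). It was -0.960 in the 6 control glands (exact permutation p = 0.0139), -0.903 in the 6 phase shift glands (exact permutation p = 0.00139), -0.844 without the 2 libraries that stand apart (permutation p = 0.00357), -0.843 without control cow 26 and phase shift cow 23, the farthest from the median GHR (permutation p = 0.00403), and -0.910 with TMM scaling (permutation p = 0.00067). The glands of phase shift cow 23 and of control cows 24 and 25, with the highest PRLR at 852 to 942 CPM, were the 3 lowest for GHR, at 54.6 to 80.9 CPM. Of the 15546 other mammary genes tested, 12 had a lower rho with GHR than PRLR had.

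GHR with STAT5A in mammary gave r = -0.827 (permutation p = 0.00049, adjusted p = 0.00261) and rho = -0.755 (permutation p = 0.00619, adjusted p = 0.033), and r = -0.660 without control cow 26 and phase shift cow 23 (permutation p = 0.0426). Within treatments it was -0.845 in control glands (n = 6, exact permutation p = 0.0472) and -0.883 in phase shift glands (n = 6, exact permutation p = 0.0208). With TMM scaling it was weaker, at -0.563 (permutation p = 0.0462, not adjusted). In liver the same pairs had the other sign: r was 0.493 for GHR with PRLR (permutation p = 0.101, adjusted p = 0.269) and 0.751 for GHR with STAT5A (permutation p = 0.0142, adjusted p = 0.0569; rho = 0.546). The latter rested on phase shift cow 22, without which r was 0.317 (permutation p = 0.339), and was 0.350 with TMM scaling. Without phase shift cow 22 and control cow 23, the farthest from the median GHR, the liver values were 0.256 and 0.181. The difference between the tissues was not tested.

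IGF1 with PRLR and with STAT5A in mammary depended on the libraries that stand apart. Over all 12 glands r was -0.102 (permutation p = 0.710, adjusted p = 0.874) and -0.335 (permutation p = 0.293, adjusted p = 0.586), and without phase shift cows 21 and 23, the farthest from the median IGF1, -0.102 and -0.564. Without control cow 26 and phase shift cow 21 the values were -0.860 (permutation p = 0.00074) and -0.889 (permutation p = 0.00045), neither adjusted. With TMM scaling over all 12 they were -0.516 (permutation p = 0.0895) and -0.643 (permutation p = 0.0224). In the 10 glands that remain, then, those with more PRLR and STAT5A transcript held less of both GHR and IGF1.

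**Figure D4:**
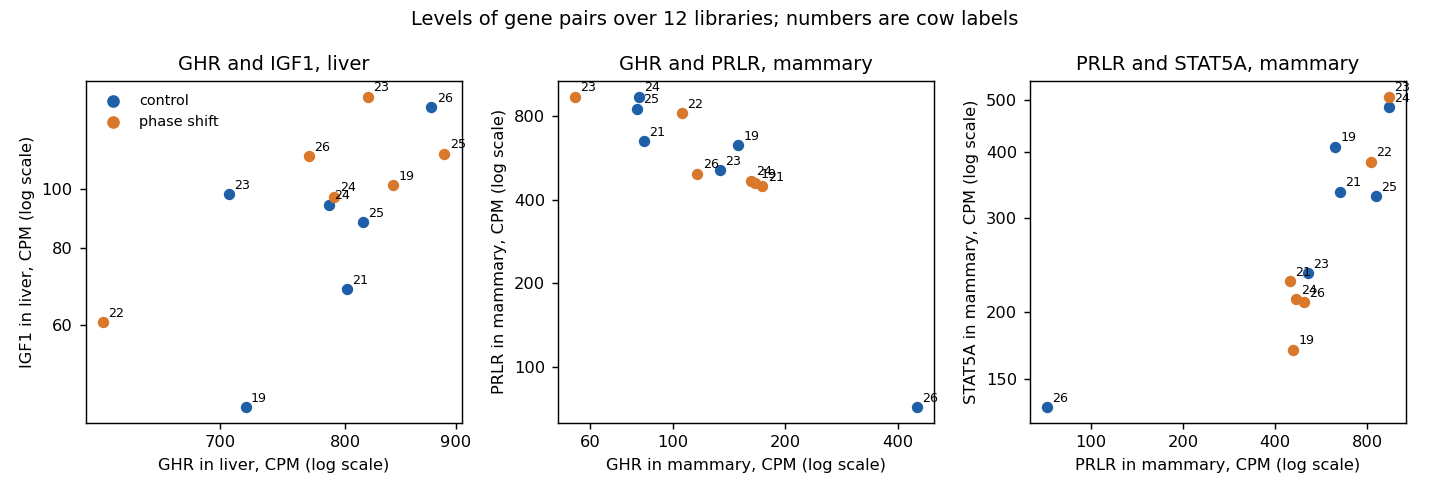
Each panel sets 2 genes against each other over 12 libraries (CPM on log scales; blue control, orange phase shift; numbers are cow labels): GHR and IGF1 in liver, GHR and PRLR in mammary, PRLR and STAT5A in mammary. The mammary panels show an inverse relation for GHR with PRLR (r = -0.918) and a direct one for PRLR with STAT5A (r = 0.816), with control cow 26 at the end of both, while the liver panel is looser (r = 0.644).

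No relation was detected between the level of a gene in a cow's liver and its level in the same cow's mammary gland. Over the 11 cows r was 0.218 for GHR, -0.0551 for IGF1, -0.221 for PRLR and -0.0362 for STAT5A, with permutation p between 0.491 and 0.929 (adjusted p = 0.929 for each) and rho between -0.345 and 0.191. Without the 2 cows farthest from the median liver level of each gene, r was 0.332, -0.272, 0.0060 and 0.292. Control cow 26, extreme in mammary, had liver values of 877 CPM for GHR, the second highest of the 12, and 580 CPM for PRLR, near the liver median of 571.

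The genes whose rank order over the 12 mammary libraries was most like that of PRLR were ENSBTAG00000001085 and ENSBTAG00000009755, each with a rho of 0.979, for which no symbol was matched. STAT5A, at 0.881, was exceeded by 1.14% of the 15546 other genes.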

How the data were processed

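Total RNA of liver and mammary biopsies was depleted of ribosomal RNA and sequenced as paired reads, per the labels' protocols. Per the submitters' processing notes, reads were trimmed with Trimmomatic 0.36, aligned with STAR 2.5.2b to ARS-UCD1.2 and counted per gene with featureCounts (Subread 1.5.2), and DESeq2 was used. Whether counting used strand is not stated there, and overlapping or antisense genes may share reads. The authors deposited raw counts per gene, a normalized signal (each value tested to equal the count over 1 factor per library) and regularized log2 values. The raw counts entered every main test.

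edgeR 4.0.16 (quasi-likelihood, robust, TMM, minimum count 10, minimum total 15, R 4.3.3) was fitted to all genes, with Benjamini-Hochberg adjusted p under 0.05 as threshold. Treatments were compared over the 12 libraries of a tissue, tissues and the interaction over 22 libraries with the cow as a block, since both biopsies came from the same animal. CPM used library size, and log2 CPM a prior count of 2. Correlations used 100000 permutations, or all of them for 6 libraries. The edgeR tests were also run on simulated counts that held no cow effect and no shift of composition between tissues. That run cannot judge the scaling between tissues.

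The genes, lists and libraries to leave out were chosen with earlier results of these data known. The 4 genes were always named, and beside them the 2 unnamed genes of most like pattern; a pathway list and marker lists could not be matched (RefSeq, ARS-UCD2.0: 0 of 27607 IDs). Alternatives were DESeq2 1.42.0, limma 3.58.1 (voom, and on the log2 values), other scalings and filters, blocks and left-out cows. Replicates within a tissue are separate cows.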

Additional observations from a re-analysis of the deposited data

Results flagged for a closer look

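GHR in the mammary library of control cow 26 was far from the other 5 control glands, at 449.5 CPM where the next had 149 CPM. The gap was 0.813 of the group's range, above Dixon's 95% critical value of 0.625. On the CPM scale this was the only such value among 16 groups of 6, where chance gives about 0.8. The check was not run on log2 CPM, on which low values stand farther apart. In CPM the same library had the lowest PRLR and STAT5A of the 12 glands, at 71.7 and 133 CPM. With its TMM factor of 0.685 the PRLR remained lowest and the STAT5A did not. Its 10 most abundant genes took 26.2% of its counts. The part of that share in these values was not tested.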

How the results depend on the processing

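GHR and IGF1 stayed lower and STAT5A higher in mammary, past the threshold, under all 20 alternatives run for each, from -3.95 to -2.67, -2.76 to -1.55 and 2.59 to 3.72 (log2). PRLR was -0.95 in control cows alone (edgeR adjusted p = 0.107), -1.06 in phase shift cows alone (edgeR adjusted p = 0.00562), 0.051 by library size alone (both of these added after seeing the data), and from -1.16 to -0.81 leaving out each cow. Without the cow pairing (no replicate block, 24 libraries) PRLR gave -0.90, GHR -3.30, IGF1 -2.68 and STAT5A 2.80, with no call changed. Phase shift values of the 4 genes passed the threshold under no alternative run. Several turned sign, among them the largest, -0.58 for GHR in mammary. Liver STAT5A was 0.0056 with the shared cow number as a replicate block. Mammary GHR was 0.15, IGF1 0.11 and PRLR -0.19 without phase shift cow 21 and control cow 26, and IGF1 0.0044 and PRLR -0.0090 by library size. Leaving out each library gave -0.80 to 0.38 for GHR, -0.32 to 0.011 for IGF1, -0.20 to 0.19 for PRLR and -0.45 to -0.011 for STAT5A, and in liver 0.055 to 0.11, 0.18 to 0.47, 0.19 to 0.40 and -0.11 to -0.020 in the same order. Liver PRLR was 0.46 with the replicate block (edgeR adjusted p = 0.869, unadjusted p under 0.05). The tissue difference of the response was 0.0068 for GHR, -0.47 for IGF1, -0.72 for PRLR and -0.53 for STAT5A without phase shift cow 22 and control cow 26, and 0.060 for PRLR and 0.034 for STAT5A by library size; leaving out each cow gave -0.50 to 0.051 for GHR, -0.49 to -0.076 for IGF1, -0.51 to 0.17 for PRLR and -0.41 to 0.053 for STAT5A. The cause of these turns was not tested. Over all liver genes edgeR called 0 between treatments (813 at unadjusted p under 0.05), 0 to 1 leaving out each library, 2 with the replicate block, and DESeq2 16, none of them the 4. The numbers shared by control and phase shift cows have no stated meaning: deviations of same-numbered cows correlated at -0.085 to 0.10 in liver and -0.38 to 0.17 in mammary. Some liver libraries correlated best with their own number, others did not, and no mammary library did. Same-numbered cows were not taken as pairs. In mammary edgeR called 0 (739 at unadjusted p under 0.05), as did DESeq2. The liver correlation of GHR with IGF1 ran from 0.572 to 0.701 leaving out each library, with a permutation p above 0.05 without phase shift cow 22 or control cow 26.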
